A study of Mus musculus with 71 samples.

Results

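The epithelium of the ileum was compared with that of the jejunum in WT mice. The members were the intestinal epithelial cell (IEC) libraries whose labels gave the genotype WT and the segment ileum (2 libraries) or jejunum (3 libraries), which is 5 of 16 IEC libraries and of 71 libraries in the whole series. The study asked what the butyrophilin-like gene Btnl2 does in the intestine, and compared WT mice with Btnl2-KO mice, in which a LacZ cassette and a selection cassette inserted at the start codon disrupt the gene. The mice of the comparison carried the strain label C57BL/6, no treatment was given for them, and the methods describe WT and Btnl2-KO animals as littermates. The titles of the libraries gave an age of 7 weeks. The small intestine was cut into segments of equal length, the epithelium was released with EDTA, and the IEC fraction was taken from a Percoll gradient without a sort. Neither a mouse nor a batch was given for any library, so that ileal and jejunal libraries may have come from the same animals. WT duodenal libraries (3) are given for reference, and Btnl2-KO libraries of the ileum and jejunum (3 each) where the same contrast was made in them.

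The small intestine absorbs different nutrients along its length. The duodenum and jejunum digest and take up most sugar, fat, and vitamin A, and the transcription factor GATA4 is known to maintain this proximal program. The ileum recovers bile acids for return to the liver and faces more bacteria than the upper segments.

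Total counts were 22523036 to 29153075 in the jejunal and 25121380 and 27045479 in the ileal libraries. Levels below are CPM, read counts relative to library sizes scaled by edgeR's TMM factors across the 16 IEC libraries. They can be compared between libraries for a gene, but not between genes, since CPM is not corrected for transcript length. Fold changes are log2 values, ileum minus jejunum, from edgeR's quasi-likelihood test on the 5 libraries, given with a standard error (SE), and a gene was called at a Benjamini-Hochberg adjusted p (FDR) below 0.05 with a fold change above 1.5. Where a gene is followed by a value and an FDR in parentheses, the value is its log2 fold change. The 12 pan-epithelial markers were present in every library, summed to 10422 to 13763 CPM in the jejunum and 14115 and 12951 CPM in the ileum, and gave 0 calls. Jejunal library 1 stood apart in its enterocyte markers. Its 11 markers summed to 2656 CPM, against 6485 and 7570.5 CPM in the other jejunal libraries and 3636 and 4178 CPM in the ileum. Of these 11 markers 1 was called lower (Fabp1) and 0 higher, and without that library 4 were lower and 1 higher. Jejunal library 1 was singled out by its low enterocyte genes. Calls of such genes without it, here and below, are thus a description and no independent support. Jejunal library 3 stood apart in another way. The 10 genes with the most counts held 41.1% of its counts, against 23.7% and 22.3% in jejunal libraries 1 and 2. The T cell and intraepithelial lymphocyte markers of jejunal library 1 were also the lowest of the 5 libraries, at 154 CPM. In bulk libraries, fewer cells of a type and less RNA per cell cannot be told apart.

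Of 12874 genes tested, 145 (1.13%) were called, 99 higher in the ileum (0.769%) and 46 lower (0.357%), and 1053 had an unadjusted p below 0.05. Counts of list members at an unadjusted p below 0.05 are to be read beside these 1053 of 12874. The median log2 fold change over all genes was -0.02. Without jejunal library 1, 97 genes were higher (0.753%) and 125 were lower (0.971%), so that the lower count moved by more than 1.5 times. Without jejunal library 2 or 3 there were 66 and 76 calls. Without ileal library 1 or 2 there were 36 and 47, with the lone ileal library assumed to vary like the jejunal ones. In all 5 of these fits 29 genes were called, 17 higher and 12 lower. The higher ones included Slc10a2, Fabp6, Hoxb6, Hoxb9, Saa1, Suox, Slc13a1, Slc5a8, Ddah1, and Gsdme, and the lower ones Onecut2, Gata4, Reg1, Gip, Aadac, and Eno1b. Each fit kept the count filter of the main test, at least 10 counts in at least 2 of the 5 libraries. Hoxb6 and Hoxb9 passed that filter only through the ileum, and Onecut2 only through the jejunum. Some of the 29 not named here likewise passed through 1 segment only. The calls of such genes are a description and no support.

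**Figure D1:**
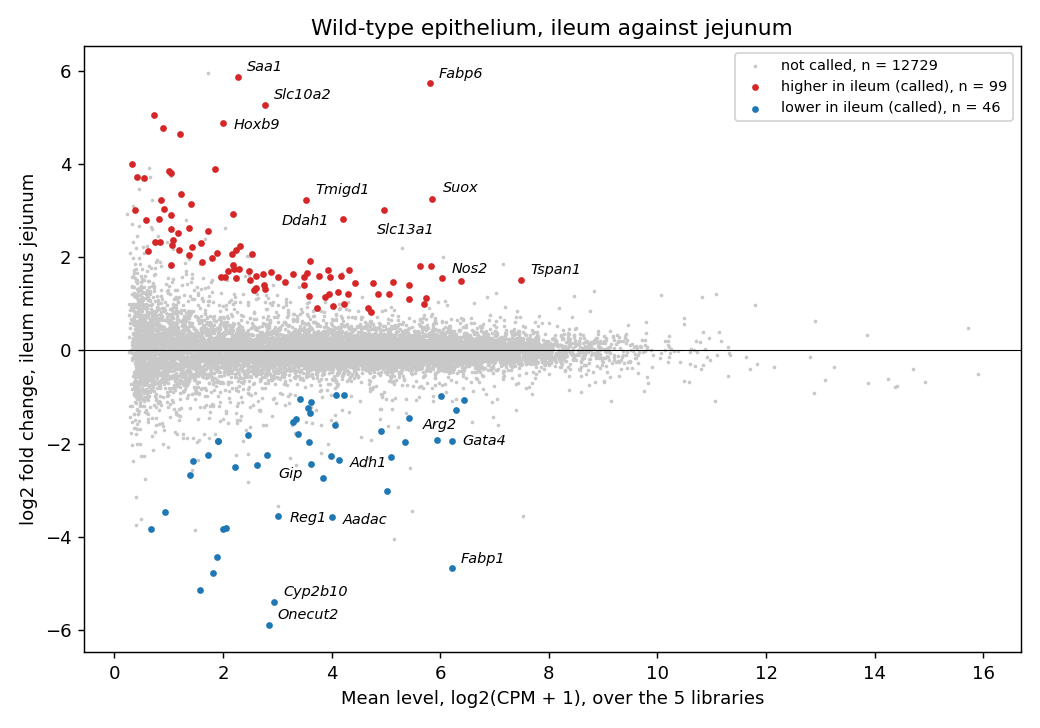
Log2 fold change (ileum minus jejunum, vertical axis) of the 12874 tested genes against their mean level (horizontal axis, mean of log2(CPM + 1) of the group means, weighted by libraries). Red points are the 99 genes called higher and blue points the 46 called lower, with Saa1, Fabp6, and Slc10a2 at the top and Onecut2 and Cyp2b10 at the bottom.

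Slc10a2 and Fabp6, which act in bile acid recovery, were among the genes with the largest fold changes toward the ileum. Slc10a2 (GRCm38.p6 chr8:5083219-5105287) encodes the apical sodium-dependent bile acid transporter, and Fabp6 (chr11:43596040-43601562) the protein that carries bile acids through the enterocyte. Their promoters are shown, beside those of Fabp1 and Gip, which were higher in the jejunum. Each is 300 bases of RefSeq GRCm38.p6, from 250 before a transcription start in that table to 50 after it, 5′ to 3′ on the gene's strand, and for Gip that start lies inside the annotated gene, which begins at chr11:96024532. Capitals mark the GATA motif (AGATAA or TGATAA) and the CDX motif (TTTATNG), searched on both strands.
Slc10a2 (chr8:5105238-5105537, minus strand): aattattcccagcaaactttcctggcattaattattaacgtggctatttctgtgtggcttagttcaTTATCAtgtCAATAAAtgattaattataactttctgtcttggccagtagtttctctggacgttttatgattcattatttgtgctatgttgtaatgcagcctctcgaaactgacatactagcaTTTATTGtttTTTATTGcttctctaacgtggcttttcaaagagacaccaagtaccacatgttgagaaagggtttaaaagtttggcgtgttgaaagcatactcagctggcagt
Fabp6 (chr11:43601513-43601812, minus strand): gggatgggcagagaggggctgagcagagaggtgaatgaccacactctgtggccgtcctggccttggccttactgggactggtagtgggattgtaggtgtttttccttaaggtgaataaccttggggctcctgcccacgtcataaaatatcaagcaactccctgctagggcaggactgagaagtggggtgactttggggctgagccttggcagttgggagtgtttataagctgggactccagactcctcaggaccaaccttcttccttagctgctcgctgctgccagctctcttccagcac
Fabp1 (chr6:71199629-71199928, plus strand): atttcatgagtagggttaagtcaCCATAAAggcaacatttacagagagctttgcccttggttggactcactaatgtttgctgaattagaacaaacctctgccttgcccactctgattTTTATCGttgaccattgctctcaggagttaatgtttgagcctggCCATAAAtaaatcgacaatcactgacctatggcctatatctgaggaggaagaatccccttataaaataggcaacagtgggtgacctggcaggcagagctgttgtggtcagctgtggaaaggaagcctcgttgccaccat
Gip (chr11:96024295-96024594, plus strand): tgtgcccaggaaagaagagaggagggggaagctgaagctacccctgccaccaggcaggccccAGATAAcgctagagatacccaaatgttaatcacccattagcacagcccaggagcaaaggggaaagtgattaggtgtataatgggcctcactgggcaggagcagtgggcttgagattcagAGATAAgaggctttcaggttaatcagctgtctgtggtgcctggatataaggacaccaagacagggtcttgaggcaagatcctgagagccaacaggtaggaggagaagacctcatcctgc
The Slc10a2 window held 3 CDX matches and 1 GATA match, the Fabp1 window 3 CDX matches, the Gip window 2 GATA matches, and the Fabp6 window 0 of either. The GATA motif was in 18.6% and the CDX motif in 10.9% of all 32851 promoter windows of this length, and in 11% and 6.96% of the 13002 windows of tested genes. Windows were found for 77 of the 99 higher genes, and of these 112 windows 18.8% held GATA and 8.04% held CDX. Windows were found for 39 of the 46 lower genes, and of these 42 windows 26.2% held GATA and 19% held CDX. A gene can have several overlapping windows, and a match describes letters only.

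Slc10a2 was at 1.05, 1.17, and 0.88 CPM in the jejunal and at 37.9 and 43.8 CPM in the ileal libraries. The groups lay far apart with little spread within either (log2 fold change 5.28, SE 0.202, edgeR FDR 2.77e-05), and this adjusted p was the smallest of all genes tested. Fabp6 was at 7.65, 20.2, and 4.34 CPM in the jejunum and 586 and 579.7 CPM in the ileum. Jejunal library 2 was the highest of its group for both genes, well below the ileum (Fabp6 log2 fold change 5.75, SE 0.563, edgeR FDR 0.00325). In the WT duodenum, Slc10a2 was at 0.0496 to 0.954 CPM and Fabp6 at 0.347 to 6.58 CPM.

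Fgf15, a hormone by which the ileum signals to the liver to lower bile acid synthesis, was at 0.476, 0.632, and 0.55 CPM in the jejunum and 6.78 and 3.02 CPM in the ileum. The groups did not overlap, but the ileal libraries differed from each other (log2 fold change 3.14, SE 0.411, edgeR FDR 0.012), and the call was lost without jejunal library 2 or ileal library 1. Nr1h4, which encodes the bile acid receptor FXR, was expressed in every library, at 36.2, 41.7, and 37.3 CPM in the jejunum and 79.6 and 74.4 CPM in the ileum (log2 fold change 1.01, SE 0.154, edgeR FDR 0.0237). Its call was lost without jejunal library 2 or 3 and without either ileal library.

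The exporters of the list did not pass the test. Slc51a, a subunit of the basolateral bile acid exporter, was at 55, 118, and 102 CPM in the jejunum and 233 and 199.9 CPM in the ileum (log2 fold change 1.24, edgeR FDR 0.124), and for its partner Slc51b the log2 fold change was 0.73 (FDR 0.779). Abcc2, an apical exporter of conjugates, lay the other way at 31.1, 48, and 44.4 CPM against 19.7 and 14.7 CPM (log2 fold change -1.25, FDR 0.0558), and was called lower without jejunal library 1 (-1.43, FDR 0.019). Of 8 tested bile acid genes of 10 listed, 4 were higher and 0 lower, and their median log2 fold change was 1.12, against -0.02 over all genes.

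**Figure D2:**
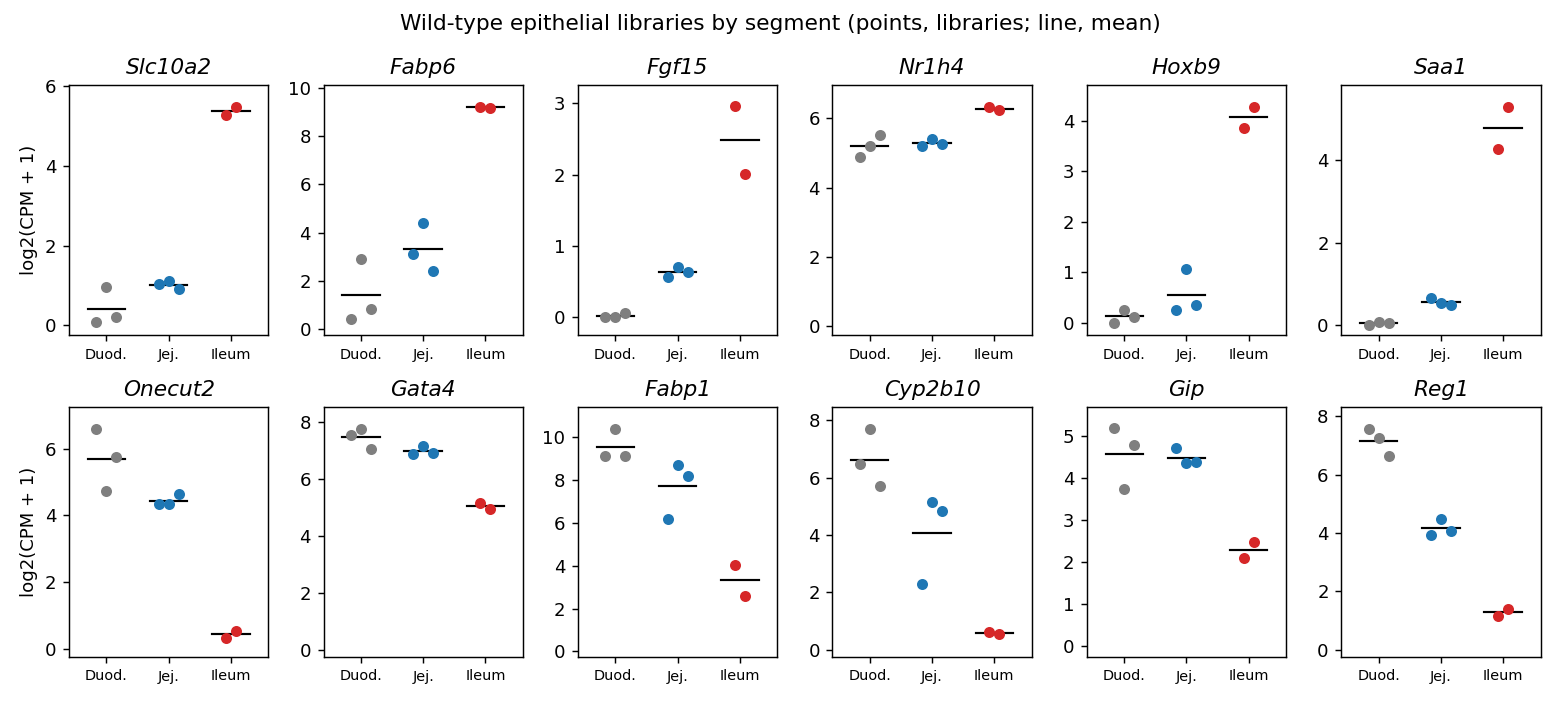
Levels of 12 genes (log2(CPM + 1), vertical axes) in the WT duodenal (3), jejunal (3), and ileal (2) libraries, with a point for each library and a line at the group mean. Both ileal libraries were above all others for the 6 genes of the upper row and below all others for the 6 genes of the lower row.

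Among transcription factors that mark position, Hox genes were called higher in the ileum, and Onecut2 and Gata4 lower. The Hox values and the Onecut2 call are a description only, because of the count filter. Of 35 listed Hox genes 8 were tested, and 4 were higher in the ileum and 0 lower, all 4 of the Hoxb cluster on chromosome 11. Hoxb9 was at 0.191, 1.07, and 0.275 CPM in the jejunum and 13.6 and 18.5 CPM in the ileum (log2 fold change 4.88, SE 0.536, edgeR FDR 0.00553). Hoxb8 was at 0.0635, 0.126, and 0.495 CPM against 3.47 and 6.55 CPM (4.65, FDR 0.0127), and Hoxb6 at 0.222, 0.316, and 0.33 CPM against 2.33 and 2.44 CPM (3.05, FDR 0.00814). The call of Hoxb8 was lost without jejunal library 2 or ileal library 2. Hoxb4 rose by a log2 fold change of 2.26 (FDR 0.0272), a call that held only without jejunal library 1 among the fits that left out a library. In the jejunum these 4 genes were at 1.07 CPM or less. Hoxb3, Hoxb5, and Hoxb7 did not pass, with log2 fold changes of 2.61, 2.68, and 1.97 (FDR 0.113, 0.0896, and 0.0744). In 7 of the 8 tested genes the ileal libraries did not overlap with the jejunal ones, as in 22% of all genes, and the exception was Hoxa3 (log2 fold change -0.06). The list's median was 2.64, and the other 27 Hox genes had too few counts to be tested. Hoxb6, Hoxb8, and Hoxb9 reached 10 counts in at most 1 jejunal library, so that they passed the count filter only through the ileum. Their direction was thus partly set by the filter. The calls, overlap, and median of this list are a description and no support.

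Of 26 tested regional transcription factors, Onecut2 and Gata4 were lower and 0 were higher, with a median of -0.07. Onecut2, a cut-homeodomain factor, was at 19.1, 19.4, and 24.1 CPM in the jejunum and 0.255 and 0.437 CPM in the ileum (log2 fold change -5.89, SE 0.306, edgeR FDR 0.000171), the largest fall among the called genes. It held 7 and 12 counts in the ileal libraries and so passed the count filter only through the jejunum. Its direction was thus partly set by the filter, and its call is a description and no support. Gata4 was at 117, 141, and 119 CPM in the jejunum and 34.9 and 29.9 CPM in the ileum (log2 fold change -1.95, SE 0.187, edgeR FDR 0.00308). Onecut2 was thus close to 0 in the ileum, whereas Gata4 kept a measurable level there. In the WT duodenum Onecut2 was at 25.7 to 96.5 CPM and Gata4 at 134 to 217 CPM. Cdx1, a homeobox factor of the whole intestine, was at 74.9, 77.2, and 61.8 CPM in the jejunum and 79.8 and 111 CPM in the ileum (log2 fold change 0.42, FDR 0.67). Prdm16, a transcriptional regulator outside the lists that was named after its values were seen, was at 18.4, 17.9, and 19.9 CPM against 4.56 and 5.02 CPM (log2 fold change -1.96, FDR 0.00308).

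Genes of sugar digestion and uptake were not called with all 5 libraries, and the calls depended on jejunal library 1. Lct, which encodes lactase, was at 113, 760.3, and 581 CPM in the jejunum and 40.2 and 42.4 CPM in the ileum. Jejunal library 1 lay below the other jejunal libraries and above the ileal ones, the log2 fold change was -3.56 (edgeR FDR 0.0644), and without that library it was -4.03 (SE 0.234, FDR 0.000911). Slc2a2, the basolateral sugar transporter GLUT2, was at 11.4, 69.8, and 54.7 CPM against 9.89 and 6.23 CPM, with log2 fold changes of -2.49 (FDR 0.185) and -2.95 (FDR 0.00446) with and without that library. The luminal glucose transporter Slc5a1 was at 366, 844, and 717 CPM in the jejunum and 604 and 476 CPM in the ileum (-0.25, FDR 0.971), and sucrase-isomaltase (Sis) at 748, 979, and 1566 CPM and 638 and 712 CPM (-0.70, FDR 0.643). Of 17 tested genes, 0 were called with all libraries (7 at an unadjusted p below 0.05), and 8 were lower without jejunal library 1, among them Treh, Khk, and Slc2a5. These 8 calls are a description only, since that library was singled out by low enterocyte genes, Treh among them. The list's median was -0.89 with and -1.11 without that library.

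Of 27 tested genes of fat absorption, 1 was lower with all libraries and 4 without jejunal library 1, with medians of -0.43 and -0.55. Fabp1, a fatty acid-binding protein shared with liver, was at 71.2, 419, and 292 CPM in the jejunum and 15.3 and 5.1 CPM in the ileum. All jejunal libraries were above the ileal ones although each group varied widely (log2 fold change -4.68, SE 0.82, edgeR FDR 0.04), and the call was lost in each of the 4 fits that left out another library than jejunal library 1. The apolipoprotein gene Apoa4 was at 21.6, 121, and 161 CPM against 8.46 and 3.82 CPM, with log2 fold changes of -4.04 (FDR 0.0664) with and -4.52 (FDR 0.00343) without that library. Apoc2 and Apoc3 were also called only without it (-1.98 and -3.23). Mttp, which loads lipid onto apolipoprotein B, was at 706, 1436, and 1139 CPM in the jejunum and 657 and 542 CPM in the ileum (-0.87, FDR 0.416), and Fabp2, the intestinal fatty acid-binding protein, at 366, 636, and 669 CPM and 322 and 370.5 CPM (-0.69, FDR 0.537).

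Of 10 tested genes of vitamin A handling, 1 was lower with all libraries and 5 without jejunal library 1, with medians of -0.79 and -0.88. Adh1, an alcohol dehydrogenase that can oxidize retinol, was at 15.1, 42.6, and 36 CPM in the jejunum and 5.76 and 6.48 CPM in the ileum (log2 fold change -2.35, SE 0.416, edgeR FDR 0.0412), and its call was lost in the 4 fits that left out another library than jejunal library 1. Rbp2, the retinol carrier of enterocytes, was at 23, 175, and 135 CPM against 9.37 and 10.9 CPM, with log2 fold changes of -3.45 (FDR 0.0893) with and -3.94 (FDR 0.000911) without that library. In both genes jejunal library 1 was the lowest of its group.

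**Figure D3:**
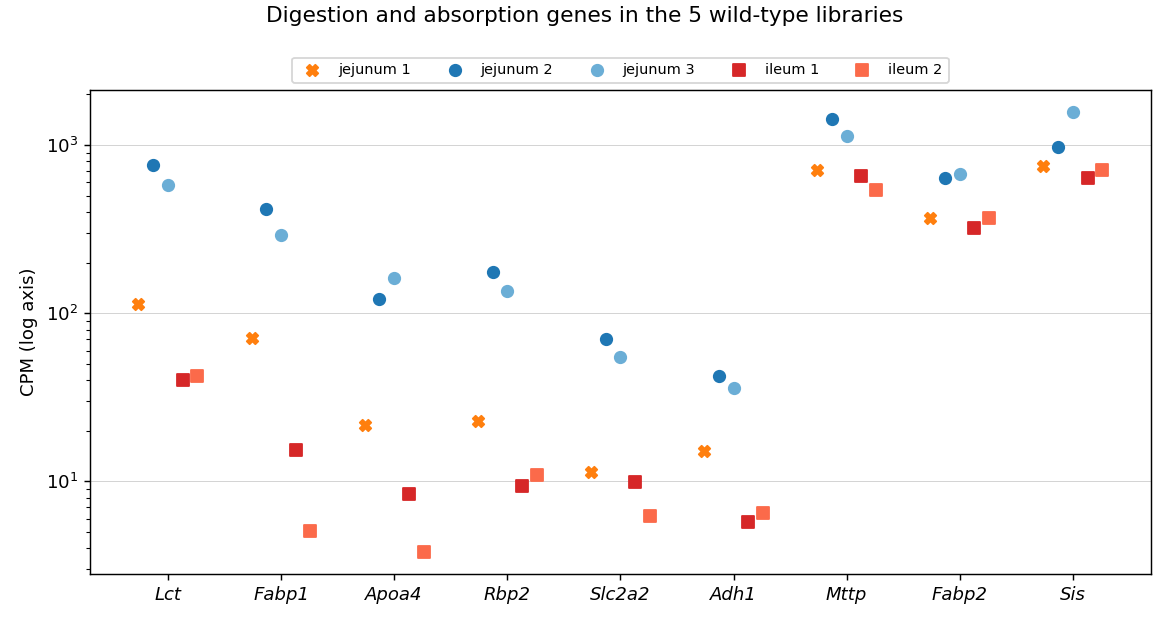
CPM (vertical log axis) of 9 genes of digestion and absorption in the 5 WT libraries, with jejunal library 1 as orange crosses, jejunal libraries 2 and 3 as blue circles, and the ileal libraries as red squares. For Lct, Fabp1, Apoa4, Rbp2, Slc2a2, and Adh1, jejunal library 1 lay between the ileal libraries and the other jejunal libraries.

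Of 49 tested genes of xenobiotic metabolism, 3 were lower and 0 higher with all libraries, and 10 were lower and 0 higher without jejunal library 1, with medians of -0.29 and -0.46. Cyp2b10, a cytochrome P450 of drug oxidation, was at 3.87, 34.1, and 27.4 CPM in the jejunum and 0.547 and 0.473 CPM in the ileum (log2 fold change -5.40, SE 0.966, edgeR FDR 0.0421). Its call and that of Cyp2c65 (-1.44, FDR 0.0347) were lost in the 4 fits that left out another library than jejunal library 1. Cyp2c66 was at 3.37, 8.44, and 7.48 CPM against 0.292 and 0.291 CPM (-4.44, FDR 0.00831), and its call was lost only without an ileal library. Cyp2c66 held 8 counts in each ileal library and so passed the count filter only through the jejunum, and its call is a description. These cytochromes belong to multigene families with similar members, so that counts of single genes are uncertain. Outside the list, Aadac, an esterase, was at 42.5, 42.6, and 30.1 CPM in the jejunum and 3.39 and 3.06 CPM in the ileum (log2 fold change -3.57, SE 0.235, edgeR FDR 0.000411), and here jejunal library 1 was not low. Ces2g, a carboxylesterase, was at 19.3, 37.1, and 25.2 CPM against 5.29 and 5.97 CPM (-2.27, FDR 0.0119), a call lost without either ileal library.

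Of 26 tested genes of peptide and amino acid uptake, 0 were called with all libraries (6 at an unadjusted p below 0.05), and 4 were lower and 1 higher without jejunal library 1. The higher one was Mep1a, a metalloprotease of the brush border, at 19.8, 32.4, and 59.3 CPM in the jejunum and 134 and 165 CPM in the ileum (log2 fold change 2.01 with all libraries, FDR 0.0558). Vitamin B12 uptake, a task of the ileum, gave 0 calls of 8 tested genes and 0 at an unadjusted p below 0.05 (median 0.19). Its receptor gene Cubn was at 13.6, 59.2, and 88.5 CPM in the jejunum and 66.3 and 101 CPM in the ileum, and the groups overlapped. Fatty acid oxidation gave 0 calls of 26 with all libraries (median -0.15) and 2 lower without jejunal library 1, and cholesterol synthesis (25 tested, median 0.25) and sterol transport (9 tested, median -0.30) gave 0 in both.

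The called members of the lists of ion and metal transport were higher in the ileum, whereas other transport genes outside these lists, named after their values were seen, were lower: Slc4a5, a bicarbonate cotransporter (-2.47, FDR 0.00513), Atp7b, a copper transporter (-1.47, FDR 0.0118), and Trpa1, a cation channel (-2.38, FDR 0.0286). Slc13a1, a sodium-sulfate cotransporter, was at 11.6, 15.5, and 11.5 CPM in the jejunum and 117 and 90.2 CPM in the ileum (log2 fold change 3.01, SE 0.205, edgeR FDR 0.000473), with 34.9 to 94.1 CPM in the WT duodenum, so that the jejunum was the lowest of the segments. Slc5a8, a sodium-coupled carrier of short-chain fatty acids and lactate, was at 25.8, 35.5, and 39.7 CPM against 120.2 and 115 CPM (1.81, SE 0.205, FDR 0.0067), with 4.91 to 5.21 CPM in the duodenum. These were the 2 called of 40 tested ion transport genes (median -0.01), and without jejunal library 1 it was 3 higher and 3 lower. Slc40a1, the iron exporter ferroportin, was at 34.3, 33, and 20.2 CPM in the jejunum and 118 and 87.1 CPM in the ileum (1.81, SE 0.248, FDR 0.0136), the 1 called of 16 genes of iron, calcium, and zinc. Of 16 tested tight junction genes 2 were higher, the claudin genes Cldn8 (1.71, FDR 0.0191) and Cldn4 (0.90, FDR 0.0481), and Cldn4 was called in 0 and Cldn8 in 1 of the 5 fits that left out a library.

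Genes that respond to microbes gave 3 higher and 0 lower of 25 tested, with a median of 0.56, and 5 higher without jejunal library 1. Saa1, a serum amyloid gene that epithelium expresses on contact with bacteria, was at 0.572, 0.443, and 0.385 CPM in the jejunum and 18.3 and 38.4 CPM in the ileum (log2 fold change 5.89, SE 0.37, edgeR FDR 0.000355). It has a near-identical copy, so that its counts are uncertain, and its ileal libraries differed from each other but both lay far above the jejunum. Nos2, the inducible nitric oxide synthase, was at 34.1, 46.1, and 45.6 CPM against 123 and 123 CPM (1.56, SE 0.185, FDR 0.00831), and its call, like those of Slc40a1 and the S100a6 gene described below, was lost without ileal library 1. Fut2, a fucosyltransferase of surface glycans, was at 16.2, 11.7, and 12.2 CPM against 31.4 and 30.9 CPM (1.22, FDR 0.0211), and its call was lost in 4 of the 5 fits. The antimicrobial lectin genes did not pass, Reg3g at 1499, 1213, and 1251 CPM and 2633 and 3202 CPM (1.15, FDR 0.0614) and Reg3b with a log2 fold change of 0.97 (FDR 0.217). Of 5 tested Reg genes 1 was called, Reg1, which was lower at 14.4, 21.1, and 15.7 CPM against 1.24 and 1.64 CPM (-3.57, SE 0.279, FDR 0.00128), with 98.1 to 190.0 CPM in the duodenum.

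Genes of antigen presentation and immune signals gave 0 calls with all libraries. The medians were 0.11 for 22 genes of MHC class I, 0.36 for 9 of MHC class II, 0.25 for 38 interferon-induced genes, and -0.02 for 17 chemokine and alarm genes. At an unadjusted p below 0.05 there were 2, 2, 3, and 4 of them, and without jejunal library 1 there was 1 lower gene each for MHC class I (H2-Q2) and the last list (Il33). The 6 tested butyrophilin genes, which bear on intraepithelial T cells, had a median of 0.26, 0 calls, and 3 genes at an unadjusted p below 0.05. Btnl2 itself was at 25.8, 51.9, and 47.9 CPM in the jejunum and 25.9 and 25.1 CPM in the ileum, and jejunal library 1 overlapped with the ileum. Its log2 fold change was -0.71 (SE 0.287, edgeR FDR 0.527), and -0.97 (SE 0.165, FDR 0.0371) without jejunal library 1, where it was called lower. Of 8 tested gasdermin genes 1 was higher, Gsdme, which encodes a pore-forming protein cleaved by caspases, at 10.7, 12.4, and 12 CPM against 38 and 39.2 CPM (1.72, SE 0.157, FDR 0.00308). Outside the lists, the caspase gene Casp6 fell by 1.97 (FDR 0.0067), a call lost without either ileal library.

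Most goblet cell genes lay above the jejunum in both ileal libraries without passing the test. Muc2, the gel-forming mucin, was at 1553, 1293, and 1803 CPM in the jejunum and 3588 and 3585 CPM in the ileum (log2 fold change 1.21, SE 0.237, edgeR FDR 0.0603). It was called by DESeq2 and limma-voom, which called 341 and 177 genes in all, against 145 by edgeR. Without jejunal library 1 edgeR did not call it either (FDR 0.0997). The 11 goblet markers summed to 12033 to 13688 CPM in the jejunum and 20592 and 19377 CPM in the ileum, with 0 of 10 called, 8 of the 10 not overlapping between the segments, as 22% of all genes did not, and a median of 0.58. Paneth cell markers (9 tested, median -0.25) and α-defensins (28 tested, median -0.23) gave 0 calls, and 1 and 5 genes at an unadjusted p below 0.05. The defensin sums overlapped at 9010.2 to 11463 CPM and 8655 and 10909 CPM, single α-defensins are near-identical and thus uncertain, and Defa32 was called higher without jejunal library 1. Stem cell (13 tested, median -0.07), tuft cell (11, -0.45), Notch and secretory fate (14, 0.08), and cell cycle genes (25, 0.03) gave 0 calls with and without that library, and 2, 0, 3, and 0 genes at an unadjusted p below 0.05. Of 15 villus-tip genes 1 was higher, S100a6, a calcium-binding protein, at 10.2, 13.4, and 9.02 CPM against 35.8 and 30.5 CPM (FDR 0.0112). The median of that list was 0.06, and 5 genes had an unadjusted p below 0.05. Its lowest log2 fold change was that of Slc28a1 (-3.86), which was not called with all libraries and was lower without jejunal library 1 (-4.35, FDR 0.0083).

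Enteroendocrine genes gave 1 lower and 0 higher of 16 tested (median -0.59). Of the 16, 10 had an unadjusted p below 0.05, against 1053 of all 12874 genes, and 13 did not overlap between the segments, against 22% of all genes. The 17 markers summed to 327 to 462 CPM in the jejunum and 214 and 244 CPM in the ileum. Gip, which K cells release in response to sugar and fat, was at 25.3, 19.4, and 19.9 CPM in the jejunum and 3.32 and 4.62 CPM in the ileum (log2 fold change -2.44, SE 0.232, edgeR FDR 0.00308). The groups lay well apart, and the WT duodenum was at 12.3 to 35.2 CPM. General endocrine genes lay the same way without being called, with log2 fold changes of -1.44 for Chgb and -0.81 for Chga, granule proteins, and -1.18 for Neurog3 and -1.10 for Neurod1, fate factors, and the part of the whole class in the Gip difference was not tested. Cck, a hormone of the upper intestine, was not called (-1.09, FDR 0.211), nor was Pyy, a hormone of the lower intestine, at 3.05, 4.74, and 2.86 CPM against 9.59 and 7.21 CPM (1.24, FDR 0.111). The proglucagon gene Gcg was at 40.5, 38.7, and 44.3 CPM in the jejunum and 54.9 and 48 CPM in the ileum (0.33, FDR 0.713).

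**Figure D4:**
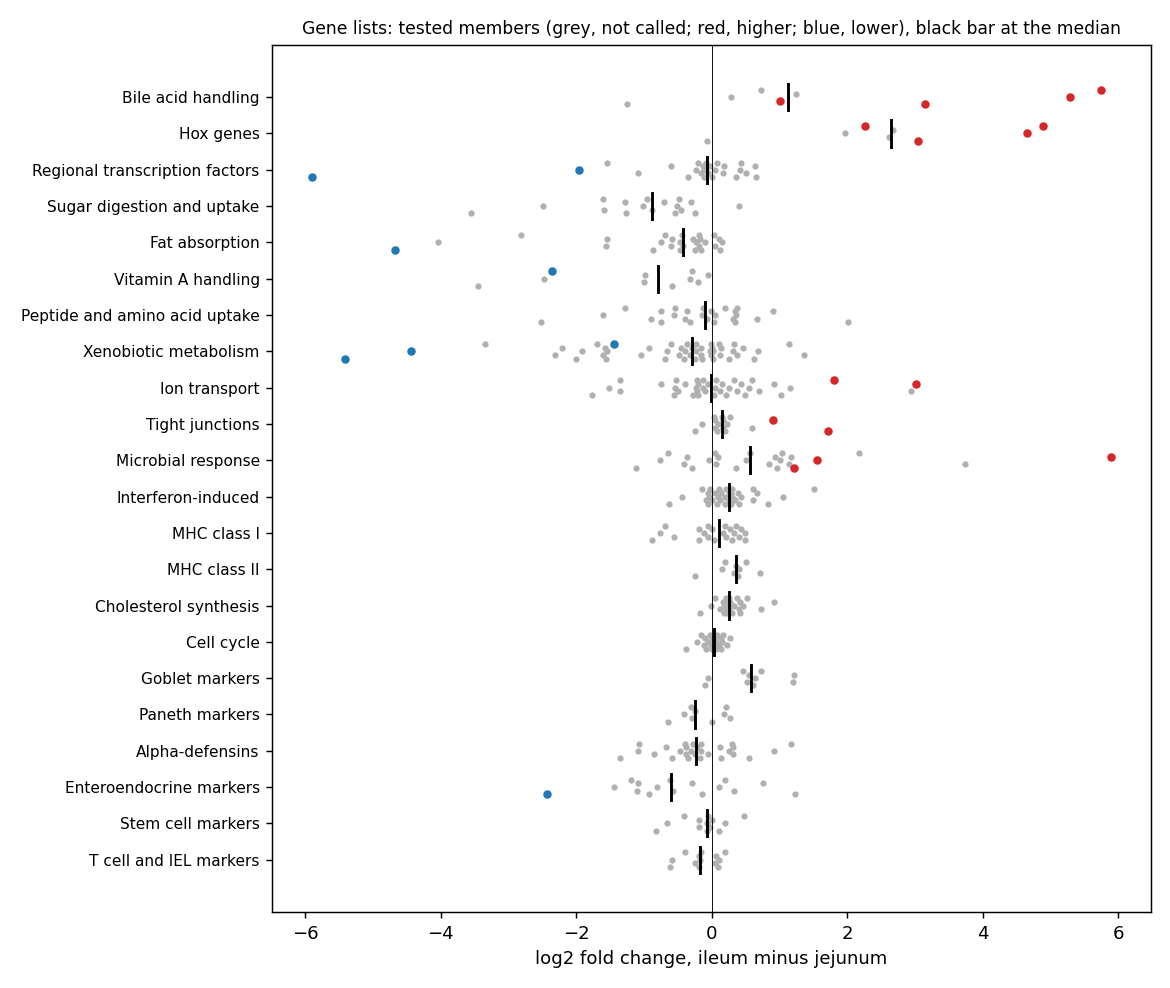
Log2 fold change (ileum minus jejunum, horizontal axis) of the tested members of 22 gene lists, with grey points for genes not called, red for higher, blue for lower, and a black bar at the list's median. Bile acid and Hox genes held 4 red points each, and the sugar list held 0 colored points at a median of -0.89.

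Few markers of cells other than epithelium were called. Myeloid markers summed to 62.6 to 66.8 CPM in the jejunum and 117 and 109 CPM in the ileum. Of 8 tested 1 was called, the integrin gene Itgam, at 42.4, 38.8, and 34.6 CPM against 87.9 and 79.6 CPM (1.12, FDR 0.0166), which made up most of each sum, while the list's median was -0.22 and Lyz2 and Csf1r had log2 fold changes of -0.33 and -0.74. Stromal markers summed to 11.6 to 19.5 CPM and 34.1 and 23.2 CPM, with 1 of 7 tested called, Pdgfrb (1.55, FDR 0.0245). Mast cell markers (5 tested) summed to 38.4 to 42.9 CPM and 85.7 and 59.9 CPM, and erythroid markers (2 tested) to 2.89 to 6.71 CPM and 35.6 and 9.17 CPM, with 0 calls in either, and 4 and 2 of them passed an unadjusted p of 0.05. T cell and intraepithelial lymphocyte markers overlapped, at 154 to 479 CPM and 269 and 356 CPM, with 0 of 13 called and 0 at an unadjusted p below 0.05. B and plasma cell (4 tested), M cell (5), neural (2), and pancreatic markers (1) gave 0 calls, and 0, 3, 1, and 0 of them passed an unadjusted p of 0.05. Gkn3, the 1 tested marker of Brunner's glands, was called lower at 0.953 to 1.26 CPM in the jejunum, and its ileal libraries held 3 and 1 counts. Gkn3 thus passed the count filter only through the jejunum, and its call is a description. Itgam, Pdgfrb, and Gkn3 were each called in 1 of the 5 fits that left out a library, the one without jejunal library 1. These cells' part in the results was not tested.

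Some of the largest differences fell outside the lists. Suox, which encodes the mitochondrial enzyme that oxidizes sulfite to sulfate, was at 20.2, 26.8, and 21.2 CPM in the jejunum and 243 and 189 CPM in the ileum (log2 fold change 3.25, SE 0.205, edgeR FDR 0.000355). Ddah1, which degrades methylated arginines, was at 7.65, 8.12, and 7.64 CPM against 56.4 and 53.6 CPM (2.82, SE 0.153, FDR 0.000171). The spread within each segment was small beside these differences. Tmigd1, an adhesion molecule, was at 2.83, 2.72, and 6.87 CPM against 26.1 and 50.1 CPM (3.24, FDR 0.0123), a call lost without jejunal library 2 or ileal library 2. Tspan1, a tetraspanin, was at 134, 139.9, and 79.2 CPM in the jejunum and 387 and 285 CPM in the ileum (1.52, FDR 0.0394), and was called in 0 of the 5 fits that left out a library. Mgat4c, a glycosyltransferase gene (FDR 0.0487), and Rmrp, the RNA of RNase MRP (1.73, FDR 0.048), were each called in 1 of those fits, and 1810065E05Rik (1.92, FDR 0.0209) in 4.

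Among lower genes outside the lists, Arg2, the mitochondrial arginase, was at 70.8, 122, and 115 CPM in the jejunum and 26.4 and 27.9 CPM in the ileum (log2 fold change -1.92, SE 0.261, edgeR FDR 0.0135). Bche, which encodes butyrylcholinesterase, was at 105, 91.5, and 135 CPM against 42.8 and 47.5 CPM (-1.29, FDR 0.0286). In both genes the ileal libraries were close to each other and below every jejunal library, but without either ileal library both calls were lost, and that of Bche also without jejunal library 3. Eno1b, which is uncertain because its reads can be shared with its near-identical copy Eno1, fell by 3.03 (FDR 0.00484). Slc25a45, a mitochondrial carrier, fell by 2.74 (FDR 0.0491), Ckb, the brain-type creatine kinase, by 2.29 (FDR 0.0425), and Rragd, a GTPase of nutrient sensing, by 1.06 (FDR 0.029). Of the 5 fits that left out a library, Slc25a45 and Rragd were called in 1, without jejunal library 1, and Ckb in 2, without jejunal library 1 or 2.

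The same contrast was made in Btnl2-KO libraries, of which 2 of 6 went against their segment labels for some genes. The library labelled Btnl2-KO ileum 1 held 0.231 CPM of Fabp6 and 126 CPM of Onecut2, whereas the other ileal libraries held 613 and 222 CPM and 0.27 and 0.389 CPM. Its Slc13a1, at 58.7 CPM, lay within the WT duodenum (34.9 to 94.1 CPM) and above the WT jejunum (11.5 to 15.5 CPM). Its Slc5a8, at 2.65 CPM, was nearer the WT duodenum (4.91 to 5.21 CPM) than the WT jejunum (25.8 to 39.7 CPM). Its Fabp1, at 221 CPM, and Cyp2b10, at 19.5 CPM, lay within the WT jejunum (71.2 to 419 and 3.87 to 34.1 CPM). Its Adh1, at 139 CPM, and Aadac, at 133 CPM, lay within the WT duodenum (126 to 313 and 106 to 150 CPM). The WT jejunum held 15.1 to 42.6 CPM of Adh1 and 30.1 to 42.6 CPM of Aadac. The library labelled Btnl2-KO duodenum 1, outside this contrast, held 220 CPM of Fabp6 and 2.72 CPM of Onecut2. The segment that either library came from was not tested. The library labelled Btnl2-KO jejunum 2 held 484 CPM of Fabp6 and 35.2 CPM of Slc10a2, whereas the other jejunal libraries held 6.86 and 0.945 CPM and 1.22 and 0.315 CPM. It also held 19.5 CPM of Btnl2, the targeted gene, against 0.371 to 0.595 CPM in the other 5 libraries of the contrast. It was not ileal throughout, with 220 CPM of Fabp1, 116 CPM of Aadac, and 14.1 CPM of Onecut2. The WT ileum held 5.1 and 15.3 CPM, 3.06 and 3.39 CPM, and 0.255 and 0.437 CPM of these genes. Whether it was a mixture was not tested. With all 6 libraries edgeR called 0 of 12558 genes (574 at an unadjusted p below 0.05) and DESeq2 called 34. Without the library labelled ileum 1 edgeR called 9 (0.07%), and without both libraries 1343 of 12793 (10.5%), 697 higher and 646 lower. In that last setting 135 of 143 tested genes called in WT mice were called in the same direction, which is 94.4% of the WT list and 10.1% of the Btnl2-KO list. Since the 2 libraries were picked by genes of the contrast itself, these counts are a description and no independent support.

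**Figure D5:**
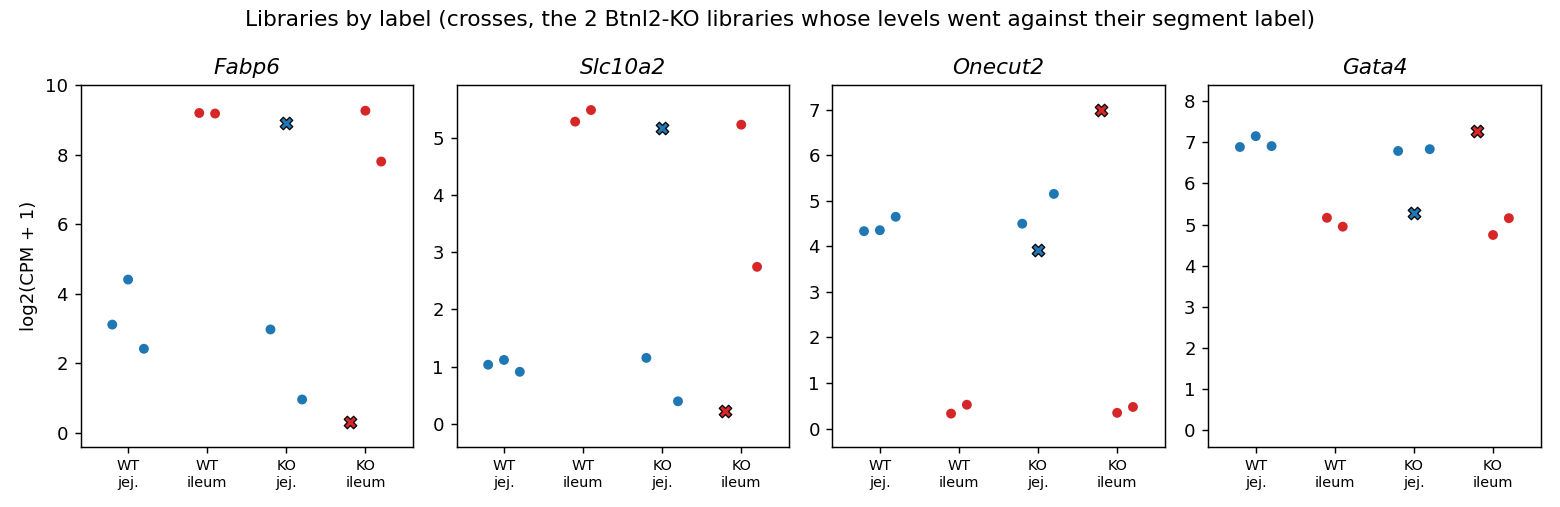
Levels of Fabp6, Slc10a2, Onecut2, and Gata4 (log2(CPM + 1), vertical axes) in the WT and Btnl2-KO jejunal and ileal libraries, grouped by label, with a point for each library. The 2 crosses are the libraries labelled Btnl2-KO jejunum 2 and Btnl2-KO ileum 1. Both lay on the side of the other segment for Fabp6, Slc10a2, and Gata4. For Onecut2 only the latter did, above all jejunal libraries, and the duodenum is not shown.

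With both libraries left out, the log2 fold changes in Btnl2-KO mice were 6.68 for Fabp6, 4.68 for Slc10a2, -6.36 for Onecut2, 8.22 for Hoxb9, -1.88 for Gata4, -1.62 for Gip, and 2.65 for Fgf15, given as a description with no test, since the libraries were left out for their levels of such genes. The interaction of segment and genotype tested whether the ileum-jejunum difference itself differed between WT and Btnl2-KO mice. It was called by edgeR for 0 of 13190 genes with all 11 libraries (473 at an unadjusted p below 0.05), for 0 without the library labelled Btnl2-KO ileum 1 (691), and for 0 without both (764), and DESeq2 called 0 with all libraries. With so few libraries, some against their labels, 0 calls do not show that the genotypes were alike.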

How the data were processed

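The authors mapped reads to a customized mouse genome in ArrayStudio and estimated reads on the sense strand of exons with RSEM, and they deposited expected counts that are neither normalized nor rounded. The submitters' processing notes name the build GRCm38. The labels name a stranded mRNA kit and the methods another kit. Of the values in the 5 libraries, 15.1% were not whole (tolerance 1e-06), and all were rounded. Of 24475 identifiers, 24375 matched a symbol in RefSeq GRCm38.p6, and the 100 others, with 3.41 to 9.24% of the counts of these 5 libraries, stayed in library sizes and tests.

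Genes with at least 10 counts in at least 2 of the 5 libraries were tested with edgeR 4.0.16 (TMM, quasi-likelihood test, 3 residual degrees of freedom) in R 4.3.3, and the steps were tested on simulated data. Btnl2-KO libraries and the interaction were fitted in the same way, with at least 3 libraries or the size of the smaller group required for Btnl2-KO. SE values were taken from the fold change and F statistic. DESeq2 1.42.0, limma-voom (limma 3.58.1), other scalings and filters, other sets of libraries, and each library left out in turn were alternatives. Replicates differed by more than sampling noise (chi-square per degree of freedom of 71.7 to 340). The lowest value was that of jejunal libraries 1 and 2, and jejunal library 3 gave 310 with library 1 and 340 with library 2. The paper describes the samples behind its graphs as biological replicates. As the labels name no animals, p-values measure the spread between these libraries, and any technical part of that spread cannot be told apart. An exact permutation test of 2 against 3 libraries cannot pass 0.05 and was not used.

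The comparison and the 44 gene lists were chosen with earlier results of these data known. Named genes are called list members and those whose role defines a list, up to 12 called genes in each direction with the largest fold change among those at 20 CPM or more whose groups do not overlap, up to 8 in each direction with the largest difference in mean CPM, and Btnl2. Other list members, among them those called only without jejunal library 1, and Prdm16, Slc4a5, Atp7b, and Trpa1 were named after their values were seen.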

Additional observations from a re-analysis of the deposited data

How the results depend on the processing

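With 2 ileal libraries, the number of calls depended on the method. None of the 145 called genes changed sign in any of the alternatives run for WT mice. This was largely fixed in advance, since these genes were picked in the same libraries, and it is no support for their directions. DESeq2 called 341 genes (208 higher, 133 lower) and kept 142 of the 145, library sizes without TMM factors gave 319 (204 and 115), all 8 WT libraries in one fit gave 83 (56 and 27), glmTreat against the 1.5-fold threshold gave 60 (37 and 23), and no filter on low counts left 30 lower genes. All 16 epithelial libraries in one fit gave 0 calls (0 and 0); that fit holds the libraries labelled Btnl2-KO ileum 1, jejunum 2, and duodenum 1, the last with 18.3 CPM of Slc10a2, and the cause was not tested. Leaving out 1 library gave 36 to 222 calls (23 to 97 higher, 13 to 125 lower), lowest without ileal library 1 and highest without jejunal library 1. Counts with RLE size factors, filterByExpr, limma-voom, no minimum fold, and without unnamed identifiers were within 1.5 times.

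In Btnl2-KO mice, where 0 genes were called, DESeq2 gave 34 (2 higher, 32 lower), leaving out 1 library gave 0 to 9 (0 to 1 higher, 0 to 9 lower), and leaving out both libraries that went against their labels, chosen after seeing the data, gave 1343 (697 and 646). The interaction stayed at 0 calls in each alternative, which with so few libraries does not show that the genotypes were alike. No paired analysis was possible because the labels give no replicate numbers shared between the segments.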
